A study of Mus musculus with 15 samples.

Results

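The levels of 10 immediate early genes were measured in mouse aorta after a short dietary phosphate load. They were the AP-1 family transcription factors Fos, Fosb, Jun, Junb and Atf3, the transcription factors Egr1 and Nr4a1, the early response gene Ier2, and the feedback genes Zfp36 and Dusp1. The genes were taken from a list of early response genes, 10 of 22180 genes measured by a probe set that names exactly 1 gene, and each of the 10 had 1 such probe set. The array intensities came from total RNA of abdominal and thoracic aorta of the inbred mouse strain DBA/2NCrl. Feeding began at an age of 8 weeks and lasted 5 days, on a high-phosphate diet (20.2 g phosphorus in each kg) or on standard chow (7.0 g in each kg). The high-phosphate groups held 4 abdominal and 3 thoracic arrays and the chow groups 4 arrays of each segment, numbered as biological replicates. Whether the segments of 1 mouse were both used, and how the aorta was cleaned of surrounding tissue, is not stated in the labels.

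Immediate early genes are transcribed within minutes of a stimulus such as a growth factor, stretch, injury or hormone, without the need for new protein. Factors that are already present in the cell, including serum response factor at the CArG box and CREB at the cyclic AMP response element, switch them on, and their mRNAs are short-lived. Fos and Jun proteins pair to form AP-1, and the feedback members of the group end the response, Zfp36 (tristetraprolin) by binding AU-rich mRNAs and promoting their decay and Dusp1 by removing phosphate from MAP kinases. In the vessel wall these genes are known to respond in smooth muscle, endothelial and inflammatory cells.

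In the diet comparison of each segment, 1 of the 10 genes, Zfp36, passed the test. Of all genes 7.01% passed in the abdominal and 2.47% in the thoracic aorta. Zfp36 rose on the high-phosphate diet in both segments, 1.46-fold in the abdominal aorta (log2 change 0.55 ± 0.15, SE, 4 against 4 arrays) and 1.64-fold in the thoracic aorta (0.72 ± 0.16, 3 against 4 arrays). No change of Fos, Fosb, Jun, Junb, Egr1, Atf3, Ier2, Nr4a1 or Dusp1 with diet passed the test in either segment. Between segments, Dusp1 was higher in the thoracic than in the abdominal aorta on the high-phosphate diet, 1.37-fold (0.45 ± 0.14). Changes are differences of group means of log2 intensity, and a gene is said to rise or fall where limma's two-sided moderated test gave a p under 0.05 after Benjamini-Hochberg adjustment across the 22180 genes. In whole tissue, fewer cells of a type and less RNA per cell cannot be told apart.

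The proximal promoters of the genes that passed a test, Zfp36 and Dusp1, are printed with those of Fos and Nr4a1, the first an AP-1 gene and the second an orphan nuclear receptor, so that the letters of the genes that passed can be read beside those of 2 that did not. Sequences for 8 of the 10 genes, matched by symbol, were used from RefSeq's GRCm38.p6, and each line gives the 250 bases before the annotated start, 5′ to 3′ on the gene's own strand. Capitals mark every match to the motifs searched on both strands, namely the CArG box, the cyclic AMP response element TGACGTCA and its core TGACG, the AP-1 site TGANTCA, the EGR site GCGNGGGCG and the TATA box TATAAA.
Zfp36: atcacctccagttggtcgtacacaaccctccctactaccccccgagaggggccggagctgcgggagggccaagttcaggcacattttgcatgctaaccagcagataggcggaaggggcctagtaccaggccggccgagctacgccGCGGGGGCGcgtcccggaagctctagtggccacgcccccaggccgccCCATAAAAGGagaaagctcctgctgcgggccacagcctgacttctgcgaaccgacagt
Dusp1: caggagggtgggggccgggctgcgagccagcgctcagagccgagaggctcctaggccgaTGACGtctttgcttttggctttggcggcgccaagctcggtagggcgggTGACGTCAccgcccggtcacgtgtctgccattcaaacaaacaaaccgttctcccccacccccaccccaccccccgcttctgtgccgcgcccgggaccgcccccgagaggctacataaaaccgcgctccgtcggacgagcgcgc
Fos: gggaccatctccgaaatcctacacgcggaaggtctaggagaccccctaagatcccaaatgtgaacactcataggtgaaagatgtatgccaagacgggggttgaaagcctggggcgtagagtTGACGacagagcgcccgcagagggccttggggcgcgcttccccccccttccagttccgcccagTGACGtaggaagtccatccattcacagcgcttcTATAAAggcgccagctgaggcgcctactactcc
Nr4a1: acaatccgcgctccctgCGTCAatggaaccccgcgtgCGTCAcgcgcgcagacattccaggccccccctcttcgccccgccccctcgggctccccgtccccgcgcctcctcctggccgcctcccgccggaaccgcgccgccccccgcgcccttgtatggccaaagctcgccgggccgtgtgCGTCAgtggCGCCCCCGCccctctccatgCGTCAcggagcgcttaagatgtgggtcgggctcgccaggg
They lie at chr7:28379229-28379478 on the minus strand for Zfp36, chr17:26508473-26508722 on the minus strand for Dusp1, chr12:85473640-85473889 on the plus strand for Fos and chr15:101266596-101266845 on the plus strand for Nr4a1.

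The windows searched also held 50 bases after the start, 300 bases in all. Zfp36 was the 1 gene of 8 with a CArG box in its window, 58 to 49 bases before the start, against 1.63% of 32817 promoter windows. Dusp1 was the 1 gene of 8 with the full cyclic AMP response element, 143 to 136 bases before the start, against 1.79% of windows. The core TGACG, which the full element contains, was found in 6 of 8 genes, at 4 places in the Nr4a1 window, and in 20.8% of all windows. An EGR site was present for Zfp36, Fosb and Nr4a1 (5.56% of windows), and the AP-1 site for none of the 8 (7.81%). The TATA box letters (13.6%) were matched for Fos, 33 to 28 bases before the start, and for Junb within the 50 bases after it. These matches are descriptions of letters in a short window. Egr1 and Ier2 were not among the 8 genes, and bases further upstream were not searched for any gene.

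Array medians lay between 5.78 and 5.84 log2 units. Several arrays had a high mean of T and NK cell or hepatocyte markers, whose source was not tested. Over 9 genes of T and NK cells the mean was 7.54 to 8.49 on abdominal high-phosphate arrays 1, 2 and 4 and abdominal chow arrays 2 and 4, and 5.50 to 6.19 on the other arrays. The mean of 11 hepatocyte genes was 8.12 and 10.31 on abdominal high-phosphate arrays 3 and 4 and 6.53 on thoracic chow array 4, and 5.34 to 5.95 elsewhere. The mean of 8 smooth muscle genes, which define the labelled tissue, was 8.36 to 9.63 over all arrays, and that of 8 endothelial genes 8.27 to 8.67. Calls of the 10 genes are also given without the 5 arrays high in T and NK cell genes and without the 3 high in hepatocyte genes where these lose them. Without the 5 arrays, abdominal high-phosphate array 3 is alone in its group, beside abdominal chow arrays 1 and 3. A call lost in that fit can reflect the smaller number of arrays.

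**Figure D1:**
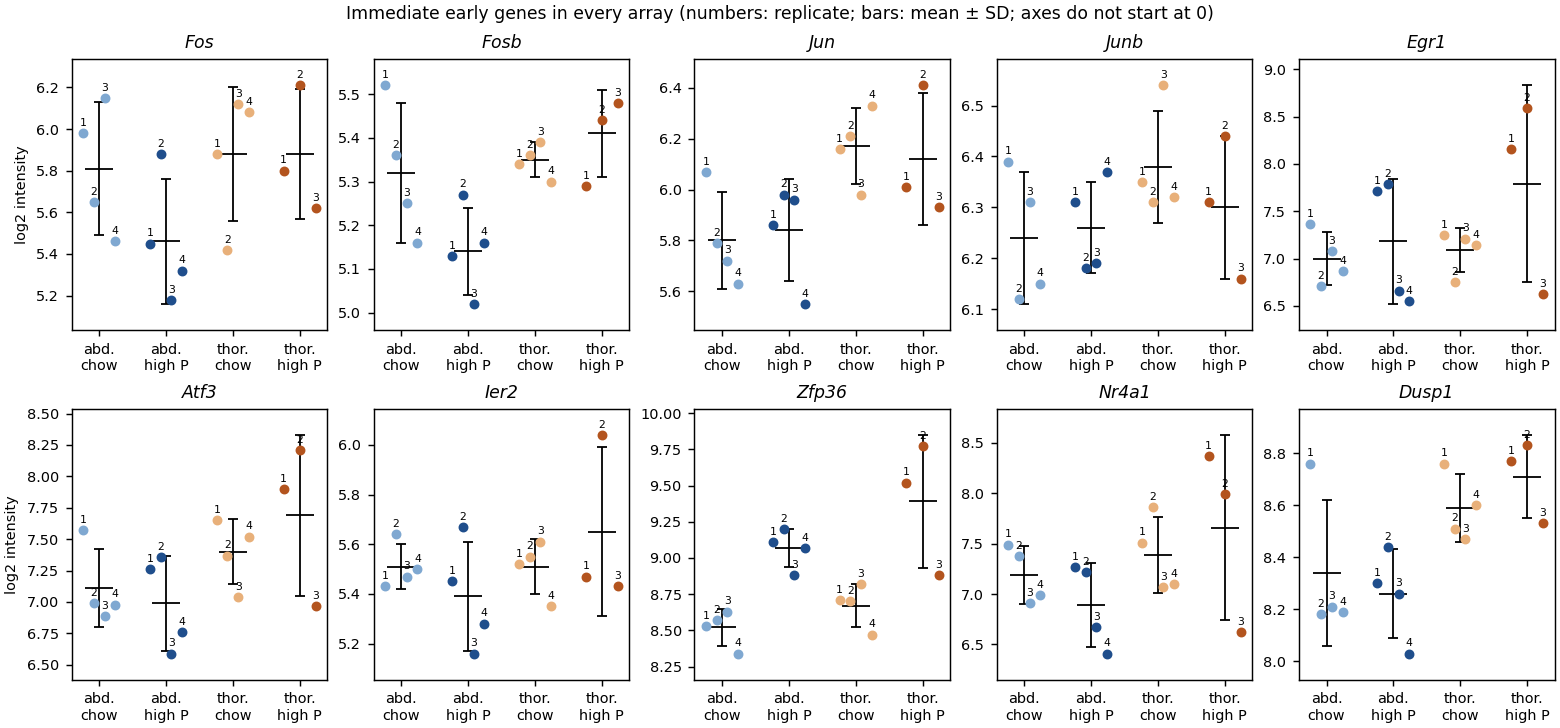
Log2 intensity (y axis) of each of the 10 genes on each of the 15 arrays, by segment and diet (x axis; abd., abdominal; thor., thoracic; high P, high-phosphate diet). Points are arrays, numbered by replicate, and bars are the mean ± SD. Zfp36 is the gene whose high-phosphate arrays, 8.88 to 9.77, all lie above the chow arrays, 8.34 to 8.82; Egr1, Atf3 and Nr4a1 spread most widely on the high-phosphate diet.

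Fos encodes the partner of Jun in AP-1. Its log2 intensities in the abdominal aorta were 5.45, 5.88, 5.18 and 5.32 on the high-phosphate diet and 5.98, 5.65, 6.15 and 5.46 on chow. In the thoracic aorta they were 5.80, 6.21 and 5.62 on the high-phosphate diet and 5.88, 5.42, 6.12 and 6.08 on chow. The groups overlapped in both segments, the abdominal high-phosphate arrays tending to the lower end. The abdominal change was -0.35 ± 0.20 (95% interval -0.77 to 0.07, adjusted p = 0.357 by limma), and the thoracic group means were both 5.88.

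Fosb, a close relative of Fos, varied within a narrow range, 5.02 to 5.52 over the 15 arrays. In the abdominal aorta its 4 high-phosphate arrays were at 5.13, 5.27, 5.02 and 5.16 and its 4 chow arrays at 5.52, 5.36, 5.25 and 5.16. Of the high-phosphate arrays 3 lay at or below the lowest chow array, and the abdominal change was -0.18 ± 0.09 (-0.36 to 0.01, adjusted p = 0.280). The thoracic chow arrays kept within 5.30 to 5.39 and the thoracic high-phosphate arrays within 5.29 to 5.48. Detection calls were not used here, so whether levels this low lie above background is not known. The same holds for Fos, Ier2 and Jun, whose group means were 5.46 to 5.88, 5.39 to 5.65 and 5.80 to 6.17.

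Jun, the DNA-binding partner that can also act as a pair with itself, was read at 5.86, 5.98, 5.96 and 5.55 in the abdominal high-phosphate arrays and at 6.07, 5.79, 5.72 and 5.63 in the abdominal chow arrays. The thoracic values were 6.01, 6.41 and 5.93 on the high-phosphate diet and 6.16, 6.21, 5.98 and 6.33 on chow. Diet groups overlapped in both segments, and the higher values belonged to the thoracic arrays. Junb, another AP-1 partner, stayed within 6.12 to 6.54 on all arrays, with group means of 6.26 ± 0.09 (SD, n = 4) and 6.24 ± 0.13 (n = 4) in the abdominal aorta on the high-phosphate diet and chow, and 6.30 ± 0.14 (n = 3) and 6.38 ± 0.11 (n = 4) in the thoracic aorta.

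Atf3, a stress-induced member of the ATF and CREB family that pairs with Jun proteins, was at 7.26, 7.36, 6.59 and 6.76 on the abdominal high-phosphate arrays and at 7.57, 6.99, 6.89 and 6.98 on the abdominal chow arrays. On the thoracic high-phosphate arrays it was at 7.90, 8.21 and 6.97, and on the thoracic chow arrays at 7.65, 7.37, 7.04 and 7.52. Thoracic high-phosphate arrays 1 and 2 were above every other array of the series, and array 3 of that group was below the whole thoracic chow group. The thoracic diet change was 0.30 ± 0.27 (adjusted p = 0.725), and it was 0.66 without high-phosphate array 3, 0.19 without array 1 and 0.04 without array 2 of that group, none of them past the test.

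Egr1 encodes a zinc finger factor that is induced by growth factors and vascular injury. On the abdominal high-phosphate diet it read 7.71, 7.79, 6.66 and 6.55, and on abdominal chow 7.36, 6.71, 7.08 and 6.87. On the thoracic high-phosphate diet it read 8.16, 8.59 and 6.62, and on thoracic chow 7.25, 6.75, 7.21 and 7.14. In each segment high-phosphate arrays 1 and 2 were above all chow arrays and the remaining high-phosphate arrays were below all of them. The spread on the high-phosphate diet (SD 0.66, n = 4, and 1.04, n = 3) was accordingly above that on chow (0.28 and 0.23, n = 4 each), a difference that was not tested. The Egr1 changes were 0.18 ± 0.36 in the abdominal aorta (-0.60 to 0.95, adjusted p = 0.849) and 0.70 ± 0.39 in the thoracic aorta (-0.14 to 1.54, adjusted p = 0.475), and their average 0.44 ± 0.27 (-0.13 to 1.01, adjusted p = 0.369). Without thoracic high-phosphate array 3 the thoracic change became 1.29 (adjusted p = 0.0730) and the average 0.73 (adjusted p = 0.0384), and without array 2 of that group the thoracic change became 0.30 (adjusted p = 0.874).

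Nr4a1, an orphan nuclear receptor of the early response, followed a similar split. Its values were 7.27, 7.22, 6.67 and 6.41 on the abdominal high-phosphate diet and 7.49, 7.38, 6.91 and 6.99 on abdominal chow. They were 8.37, 7.99 and 6.62 on the thoracic high-phosphate diet and 7.51, 7.86, 7.07 and 7.10 on thoracic chow. High-phosphate arrays 1 and 2 were the highest of the thoracic aorta and array 3 the lowest, whereas in the abdominal aorta arrays 1 and 2 lay inside the chow range and arrays 3 and 4 below it. The change was -0.30 ± 0.32 in the abdominal aorta (-0.98 to 0.37, adjusted p = 0.657) and 0.28 ± 0.34 in the thoracic aorta (-0.45 to 1.00, adjusted p = 0.821). Ier2, a small nuclear protein of the early response, spanned 5.16 to 5.67 in the abdominal aorta and 5.35 to 6.04 in the thoracic aorta, with the top value of each segment on high-phosphate array 2 and overlapping groups in both.

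Zfp36 was at 9.11, 9.20, 8.88 and 9.07 in the abdominal aorta on the high-phosphate diet and at 8.53, 8.57, 8.63 and 8.34 on chow. In the thoracic aorta it was at 9.52, 9.77 and 8.88 on the high-phosphate diet and at 8.71, 8.70, 8.82 and 8.47 on chow. All high-phosphate arrays were above all chow arrays of their segment, and also of the other segment. The abdominal change of 0.55 had a 95% interval of 0.23 to 0.86 and an adjusted p of 0.0346 by limma, and the thoracic change of 0.72 an interval of 0.38 to 1.06 and an adjusted p of 0.0267. The average of both, 0.63 ± 0.11 (0.40 to 0.86, 1.55-fold), had an adjusted p of 0.00119, and the difference between them, abdominal minus thoracic, was -0.17 ± 0.22 (-0.63 to 0.29, adjusted p = 0.931).

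The average change of Zfp36 kept its call in all 15 fits that left out 1 array, with changes of 0.54 to 0.76 and adjusted p of 3.95e-05 to 0.00458. The calls within a single segment were near the threshold. The abdominal call was lost without any 1 of high-phosphate arrays 1, 2 and 4 and chow arrays 1 to 4 (adjusted p 0.0516 to 0.103), and the thoracic call without any 1 of high-phosphate arrays 1 and 2 and chow arrays 1, 2 and 4 (0.0613 to 0.130). Without the 5 arrays high in T and NK cell genes the abdominal change of Zfp36 was 0.30 (adjusted p = 0.807, with 2 chow arrays left and 1 high-phosphate array that is assumed to vary like the other groups), the thoracic change was 0.72 (adjusted p = 0.0691) and the average was 0.51 (adjusted p = 0.123). The thoracic call was also lost in a fit of only the 2 thoracic groups (adjusted p = 0.0864), and both segment calls without the 3 arrays high in hepatocyte genes, where the changes were 0.64 (adjusted p = 0.0594) and 0.65 (adjusted p = 0.0961), about as large as with them.

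Markers of several cell types also differed between the diets. The mean of 8 macrophage genes was 8.27 to 8.63 on abdominal high-phosphate and 7.92 to 8.35 on abdominal chow arrays, and 8.30 to 8.86 against 7.96 to 8.20 in the thoracic aorta. In the average diet change 4 of the 8 were called higher and 0 lower, against 4.53% and 6.18% of all genes. The mean of 10 brown adipocyte genes was 7.10 to 7.58 against 8.58 to 9.04 in the abdominal aorta and 7.80 to 8.47 against 8.95 to 9.24 in the thoracic aorta, with all 10 called lower in the average. The mean of 8 adventitial fibroblast genes was 8.35 to 8.52 against 9.07 to 9.35 and 8.75 to 9.17 against 9.12 to 9.26, with 6 called lower and 1 higher. Of 8 genes of adipocytes in general 4 were called lower and 0 higher, and of 8 endothelial genes 3 lower and 1 higher. Of 9 cardiac muscle genes 1 was called in each direction, and the remaining marker lists had 0 calls. The part of these cell types in the Zfp36 result was not tested.

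Dusp1, the MAP kinase phosphatase, was at 8.30, 8.44, 8.26 and 8.03 in the abdominal aorta on the high-phosphate diet and at 8.76, 8.18, 8.21 and 8.19 on chow. Its thoracic values were 8.77, 8.83 and 8.53 on the high-phosphate diet and 8.76, 8.51, 8.47 and 8.60 on chow. The diet groups overlapped in both segments. Chow array 1 stood above the other 3 abdominal chow arrays.

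The members' counts of diet calls stand beside the shares of all genes. In the abdominal aorta 1 of 10 was called higher and 0 lower, against 1.95% of all 22180 genes called higher, 5.06% lower and 7.01% either way. The median change of the 10 was -0.10, against -0.01 over all genes, and apart from Zfp36 the changes ran from -0.35 to 0.18. In the thoracic aorta 1 was called higher and 0 lower, against 1.39%, 1.08% and 2.47% of all genes, with a median of 0.13 against -0.01. In the average 1 was called higher and 0 lower, against 4.53%, 6.18% and 10.7%. Groups did not overlap for 1 of 10 in the abdominal and 1 of 10 in the thoracic comparison, against 11.9% and 13.8% of all genes. With 10 genes 1 call is the smallest count above 0, so these counts describe Zfp36 and say nothing of the 10 as a group.

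The difference between the diet changes of the segments passed the test for 0 of the 10 genes and for 0% of all genes by limma, where 1217 genes had an unadjusted p under 0.05. None of the 10 was among those at an unadjusted p under 0.05. The widest differences, abdominal minus thoracic, were -0.58 ± 0.46 for Nr4a1 (adjusted p = 0.893) and -0.53 ± 0.54 for Egr1 (adjusted p = 0.909).

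**Figure D2:**
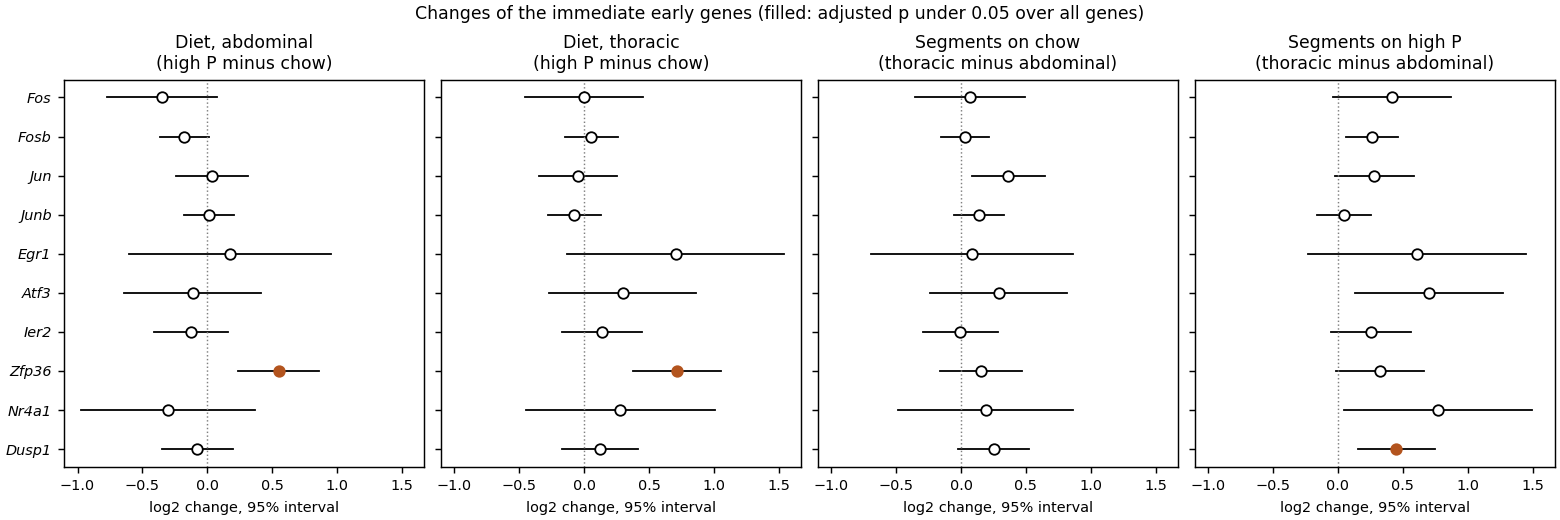
Log2 change (x axis) with its 95% interval for each of the 10 genes (y axis) in the diet comparison of each segment and the segment comparison on each diet. Filled points have an adjusted p under 0.05 over all genes by limma: Zfp36 in both diet comparisons and Dusp1 between segments on the high-phosphate diet. The intervals of Egr1, Atf3 and Nr4a1 are the widest.

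Between segments on chow 0 of the 10 genes passed the test by limma, and 1, Jun, had an unadjusted p under 0.05. Jun was 0.36 ± 0.13 higher in the thoracic aorta (0.09 to 0.64, adjusted p = 0.135). Dusp1 was 0.25 ± 0.13 higher (-0.02 to 0.52, adjusted p = 0.298), and Atf3 0.29 ± 0.25 (adjusted p = 0.555). Of all genes, 4.78% were called, 1.76% higher and 3.02% lower in the thoracic aorta. The groups overlapped for all 10 genes, whereas they did not overlap for 12% of all genes. The median of the 10 was 0.15, against 0.03 over all genes. Without abdominal chow array 1, the array on which Dusp1 stood high, the Dusp1 difference was 0.39 (adjusted p = 0.0373), over 1.5 times as large.

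On the high-phosphate diet the thoracic aorta had the higher mean for each of the 10 genes, from 0.05 for Junb to 0.77 for Nr4a1, though Junb turned to -0.02 without thoracic high-phosphate array 2. The median was 0.37, against 0.04 over all genes. The mean of the 10 genes was 6.62 to 7.39 on the thoracic and 6.45 to 6.9 on the abdominal arrays, so the groups overlapped. The 10 genes vary together from array to array, so their shared direction is not 10 separate results. One gene was called, Dusp1, at 0.45 ± 0.14 (0.16 to 0.74, adjusted p = 0.0423 by limma), and 4 of the 10 had an unadjusted p under 0.05. Of all genes 13.8% were called, 7.57% higher and 6.25% lower, and 1 call in 10 is near that share. The groups did not overlap for Fosb and Dusp1, 2 of 10, against 23.8% of all genes.

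In the AP-1 family the difference between segments on the high-phosphate diet was 0.42 ± 0.21 for Fos (adjusted p = 0.218), 0.26 ± 0.09 for Fosb (adjusted p = 0.0788), 0.28 ± 0.14 for Jun (adjusted p = 0.212), 0.05 ± 0.10 for Junb (adjusted p = 0.807) and 0.70 ± 0.27 for Atf3 (0.13 to 1.27, adjusted p = 0.0978). Among the other factors it was 0.61 ± 0.39 for Egr1 (adjusted p = 0.334) and 0.77 ± 0.34 for Nr4a1 (0.04 to 1.498, adjusted p = 0.153). It was 0.26 ± 0.14 for Ier2 (adjusted p = 0.267) and 0.32 ± 0.16 for Zfp36 (adjusted p = 0.200). The segment comparisons share arrays with the diet comparisons, so these values and the diet changes are not independent.

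The count depended on single arrays. Without thoracic high-phosphate array 3, the array low in Egr1, Atf3 and Nr4a1, 5 of the 10 genes were called higher, against 1269 of all 22180 genes called higher and 760 lower in that fit, namely Dusp1, Egr1 at 1.197 (adjusted p = 0.0315), Atf3 at 1.06 (adjusted p = 0.0136), Zfp36 at 0.58 (adjusted p = 0.00825) and Nr4a1 at 1.29 (adjusted p = 0.00912). The Dusp1 call was lost without any 1 of abdominal high-phosphate arrays 1, 3 and 4, thoracic high-phosphate arrays 1 and 2 and thoracic chow arrays 2 and 4, with changes of 0.38 to 0.46 and adjusted p of 0.0518 to 0.140. It was also lost without the 3 arrays high in hepatocyte genes (0.34, adjusted p = 0.216). The fit without the 5 arrays high in T and NK cell genes did not keep the call either. That fit left 1 abdominal high-phosphate array, and its Dusp1 change was 0.45.

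The segments also differed in cell type markers on the high-phosphate diet, where 7.57% of all genes were called higher and 6.25% lower. All 8 smooth muscle genes were called higher in the thoracic aorta, where their mean was 9.43 to 9.63 against 8.36 to 8.99. All 9 cardiac muscle genes were called higher, with a mean of 8.41 to 8.93 against 6.02 to 6.25. All 9 measured sympathetic neuron and chromaffin cell genes were called lower, at 5.83 to 6.92 against 8.77 to 9.36, and 8 of 9 T and NK cell genes were called lower, at 5.50 to 5.85 against 6.19 to 8.49. Also called higher were 6 of 10 brown adipocyte genes, 4 of 8 genes of adipocytes in general, 5 of 8 adventitial fibroblast and 4 of 6 mesothelial genes. Called lower were 5 of 6 B and plasma cell genes and 1 of 11 hepatocyte genes. The part of these cells in the Dusp1 difference was not tested.

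The 10 genes also differed from array to array within a group. Taken as the deviation from the mean of its own group, 8 and 9 of the 10 genes were above it on abdominal high-phosphate arrays 1 and 2, and 1 and 3 of 10 on arrays 3 and 4. In the thoracic high-phosphate group 6 and 10 of the 10 were above it on arrays 1 and 2 and 1 of 10 on array 3. The mean deviation of the 10 genes was 0.14, 0.25, -0.19 and -0.20 on the abdominal high-phosphate arrays in order of number, and 0.10, 0.33 and -0.44 on the thoracic ones. Abdominal chow array 1 had 9 of 10 genes above its group mean and a mean deviation of 0.23, and abdominal chow array 4 had 0 of 10 and -0.16. The thoracic chow arrays kept within -0.04 to 0.07.

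Egr1 gave the widest deviations, from -1.17 on thoracic high-phosphate array 3 to 0.80 on array 2 of that group. Some marker means of other cells also differed among these arrays. Of the low arrays, abdominal high-phosphate arrays 3 and 4 carried the hepatocyte genes given above, and thoracic high-phosphate array 3 had a mean of 8 skeletal muscle genes of 7.88 against 6.33 and 5.99 on the other arrays of its group. Abdominal chow array 4, with 0 of 10, had a T and NK cell mean of 8.14 and a skeletal muscle mean of 7.85. Of the high arrays, abdominal high-phosphate arrays 1 and 2 had T and NK cell means of 8.49 and 8.46 and means of 6 B and plasma cell genes of 8.28 and 8.39. On the low arrays of that group these means were 6.19 and 6.03 for array 3 and 8.07 and 7.36 for array 4. Abdominal chow array 1 had the highest skeletal muscle mean of the series, 8.35, and abdominal high-phosphate array 1 had 7.49. Thoracic high-phosphate array 2 had the highest macrophage mean of the series, 8.86. Its sympathetic neuron and chromaffin mean was 6.92, against 5.83 and 6.04 on the other arrays of its group. The part of these tissues in the early gene levels was not tested.

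**Figure D3:**
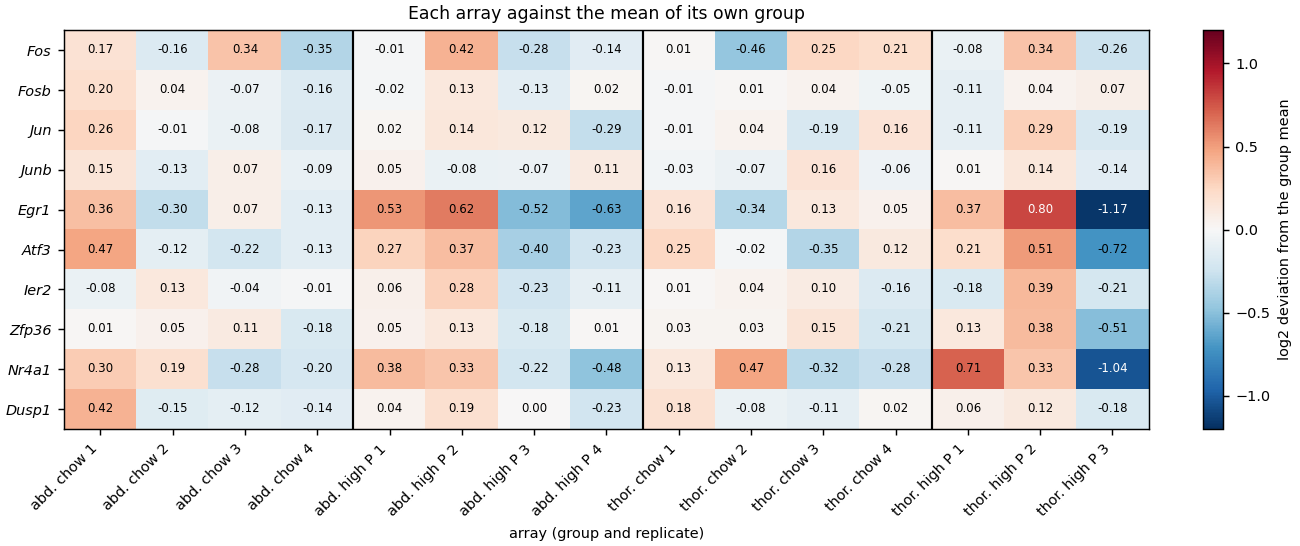
Deviation of each gene (rows) on each array (columns) from the mean of its own group, in log2 units, printed in the cell and coloured from blue (below) to red (above). On the high-phosphate diet, arrays 1 and 2 of each segment are mostly red and the remaining arrays mostly blue, with Egr1 reaching -1.17 and Nr4a1 -1.04 on thoracic array 3.

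Within groups the 10 genes moved together to different degrees. Pearson's r between 2 genes over the 15 arrays, with the 4 group means removed, had a median of 0.48 over the 45 pairs and ranged from 0.05 to 0.87, with 14 pairs above 0.6. All points of a pair share the array, so these values are a description. The closest pair was Egr1 and Atf3 (0.87). Nr4a1 was most like Atf3 (0.80), Dusp1 most like Atf3 (0.79), Zfp36 most like Egr1 (0.78), Jun most like Dusp1 (0.76), Ier2 most like Zfp36 (0.73) and Fos most like Egr1 (0.69). Fosb stood apart, with a highest r of 0.45, to Dusp1. The genes outside the 10 whose within-group deviations were most like the mean of the 10, by the same r, were Zfp36l2 (0.89), Afg1l, Naa60, Nipa2, Olfr1120, Chek1, Sgk1, Fam214a, Champ1 and Lum (0.85). Taking the highest r among all other genes over only 15 arrays favours high values by selection, and no test was made of this list.

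Further genes of the early response were taken from lists by role. The lists were chosen with earlier results of these data known, so their counts beside the shares of all genes are a description. Of 37 measured feedback and mRNA decay genes other than Zfp36 and Dusp1, 11 rose and 2 fell in the average diet change, against 4.53% and 6.18% of all genes, with a median change of 0.09 against -0.01. Errfi1, an inhibitor of the EGF receptor, rose by 0.98 ± 0.15 (adjusted p = 0.00063), Nfkbia, the inhibitor of NF-kappaB, by 0.56 ± 0.08 (adjusted p = 0.000245) and Gadd45b, a stress response gene, by 0.72 ± 0.13 (adjusted p = 0.0017). These 3 calls and that of Mcl1, an anti-apoptotic gene (0.43), held in all 25 alternatives. Per1, a clock gene (0.88), Sgk1, a kinase induced by corticosteroids (0.53), and Btg2 (0.66) each lost the call in 1 of them, the fit without the 5 arrays high in T and NK cell genes (0.82, 0.45 and 0.54, adjusted p = 0.055, 0.129 and 0.202). Gadd45g, Socs3, Ier3 and Ppp1r15a also rose, each losing the call in 2 to 16. Dusp10 and Dusp4, phosphatases of the same family as Dusp1, fell by 0.61 ± 0.12 (adjusted p = 0.00263) and 0.45 ± 0.11 (adjusted p = 0.0117). The Dusp10 call held in all 25 alternatives, and the Dusp4 call was lost in the same fit as that of Per1 (-0.45, adjusted p = 0.206). The list's count of higher calls was lower without the 5 arrays high in T and NK cell genes, a fit that left 1 abdominal high-phosphate array. It was 9 to 13 in the other alternatives.

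Within segments the feedback list had 5 genes higher and 1 lower in the abdominal aorta, namely Errfi1, Gadd45b, Mcl1, Nfkbia and Per1, and Dusp10. In the thoracic aorta it had 3 higher and 0 lower, namely Errfi1, Nfkbia and Sgk1. All genes had 1.95% higher and 5.06% lower in the first comparison and 1.39% and 1.08% in the second. Errfi1 was at 9.44 to 10.33 against 8.57 to 9.43 in the abdominal aorta and at 9.43 to 10.04 against 8.25 to 8.88 in the thoracic aorta, so that its groups did not overlap in either. Nfkbia was at 8.27 to 8.41 against 7.48 to 8.08 and at 8.07 to 8.37 against 7.53 to 7.73, likewise without overlap.

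These calls within 1 segment were lost under some alternatives. The abdominal calls were not kept without the 5 arrays high in T and NK cell genes, a fit that left 1 abdominal high-phosphate array. The changes there were 0.96 for Errfi1, 0.96 for Gadd45b, 0.54 for Mcl1, 0.67 for Nfkbia, 0.75 for Per1 and -0.75 for Dusp10. Without the 3 arrays high in hepatocyte genes the abdominal calls of Errfi1 (0.70, adjusted p = 0.111), Gadd45b (0.78, 0.0729), Per1 (0.90, 0.0794) and Dusp10 (-0.40, 0.258) were lost. Leaving out 1 array lost the abdominal call of Mcl1 for high-phosphate array 1 or 2 or chow array 1 (adjusted p 0.0506 to 0.064), of Per1 for high-phosphate array 1 or 4 or chow array 3 (0.0546 to 0.0605), and of Dusp10 for high-phosphate array 3 or 4 or chow array 1, 2 or 4 (0.0542 to 0.113). In the thoracic aorta it lost that of Errfi1 for high-phosphate array 2 or 3 or any chow array (0.0523 to 0.138), of Nfkbia for high-phosphate array 3 or chow array 2 or 4 (0.0539 to 0.095), and of Sgk1 for high-phosphate array 1 or 2 or chow array 1, 3 or 4 (0.0514 to 0.111).

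Of 25 measured early response transcription factors outside the 10, 4 rose and 1 fell in the average diet change, against 4.53% and 6.18% of all genes, with a median of 0.06 against -0.01. Cebpd, a C/EBP factor of the acute phase response, rose by 0.69 ± 0.12 (adjusted p = 0.00144) and Klf6, a Krüppel-like factor, by 0.39 ± 0.08 (adjusted p = 0.00584), both in all 25 alternatives. Myc rose by 0.43 ± 0.09 (adjusted p = 0.00759) and Id3, an inhibitor of DNA binding, by 0.36. The Myc call was lost without the 5 arrays high in T and NK cell genes (0.43, adjusted p = 0.0522), and the Id3 call without thoracic high-phosphate array 1 (0.33, adjusted p = 0.059) and without the 3 arrays high in hepatocyte genes (0.28, adjusted p = 0.106). Cebpb fell by 0.44 ± 0.12 (adjusted p = 0.0279), a call lost in 8 alternatives, 6 of them fits without 1 array (abdominal high-phosphate 2, abdominal chow 1, thoracic high-phosphate 2 or 3, thoracic chow 1 or 2, adjusted p 0.0537 to 0.0785). Of the 25 measured kinases and factors that act upstream of these genes, Mrtfb, a coactivator of serum response factor, rose by 0.28 ± 0.07 and Prkaca, the catalytic subunit of protein kinase A, fell by 0.49 ± 0.09 (adjusted p = 0.00137). These are 1 of 25 in each direction, against the same 4.53% and 6.18%. Each call was lost without the 5 arrays high in T and NK cell genes (0.26, adjusted p = 0.193, and -0.33, adjusted p = 0.0628).

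Of 18 measured secreted factors and enzymes made early, 1 rose (Thbs1, 0.43) and 1 fell (Vegfa, -0.38) in the average diet change, calls lost in 18 and 10 of 25 alternatives, and these counts are near the 4.53% and 6.18% of all genes. Of 9 measured heat-inducible chaperones 0 rose and 2 fell, Hsph1 by 0.44 ± 0.09 (adjusted p = 0.00368) and Hspa1a by 0.89 ± 0.26 (adjusted p = 0.0423). The Hsph1 call was lost without the 5 arrays high in T and NK cell genes (-0.29, adjusted p = 0.256), and the Hspa1a call in 14 alternatives, 12 of them fits without 1 array. Hspa1a was at 6.63 to 7.42 against 7.05 to 8.97 in the abdominal aorta and at 7.71 to 8.15 against 7.67 to 9.15 in the thoracic aorta, so that its groups overlapped in both.

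**Figure D4:**
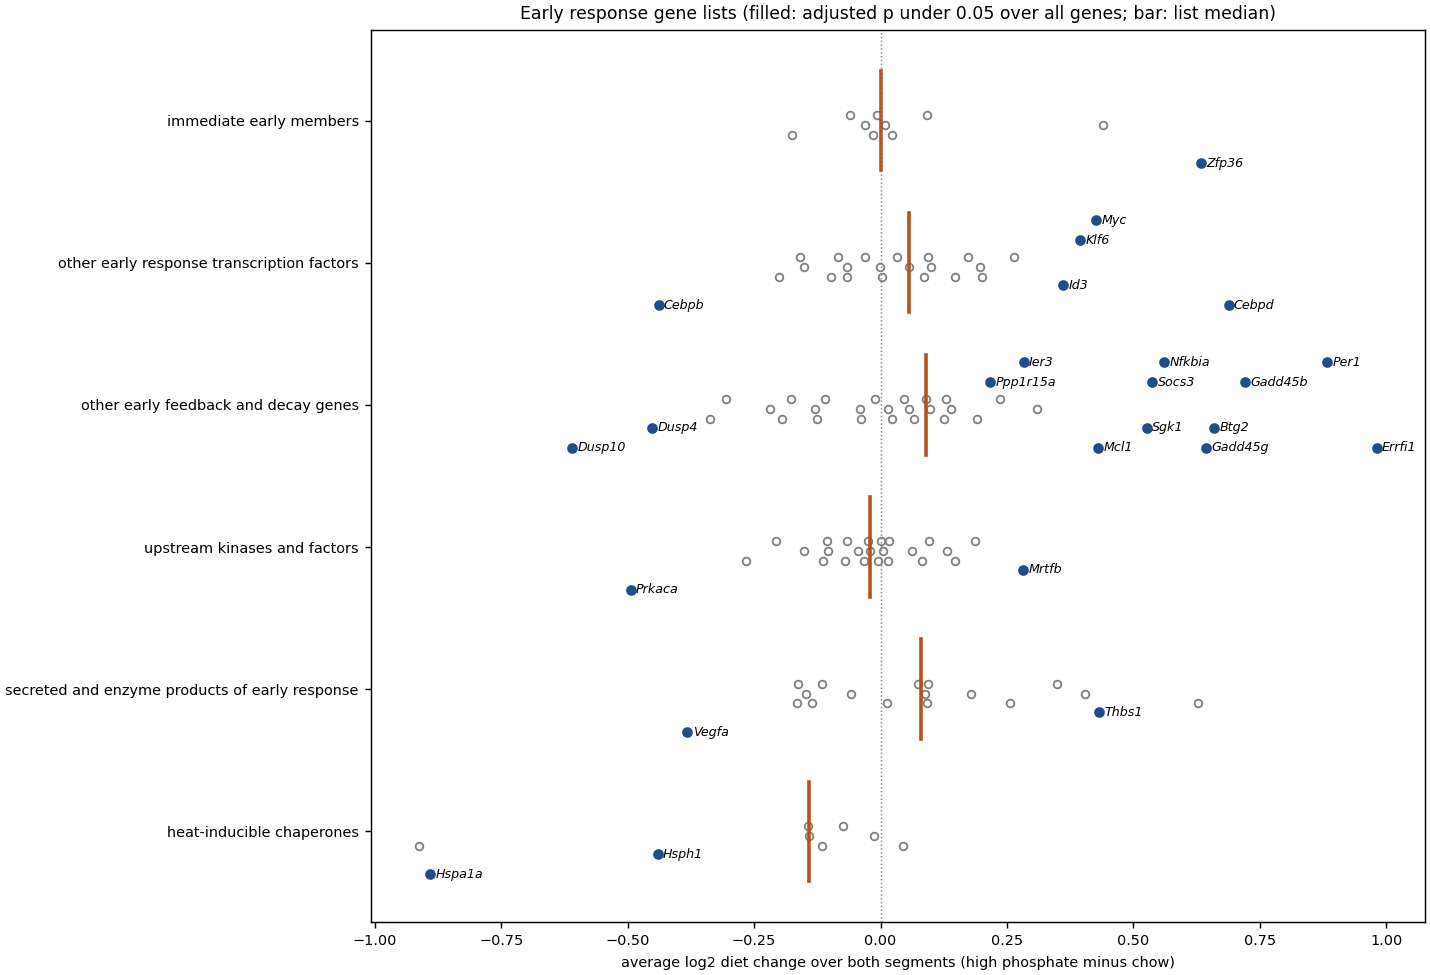
Average log2 diet change over both segments (x axis, high phosphate minus chow) of each measured gene of 6 early response lists (y axis; vertical spread within a list has no meaning). Filled, named points have an adjusted p under 0.05 over all genes by limma, and bars are list medians. Among the 10 immediate early genes Zfp36 alone is filled, and the list of other feedback and decay genes holds 11 of its 37 on the high side and 2 on the low side. All lists were chosen with earlier results of these data known.

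Between segments on the high-phosphate diet the secreted products were the list with the highest median of the 6, 0.53 against 0.04 over all genes, and 6 of 18 were called higher in the thoracic aorta and 0 lower, against 7.57% and 6.25% of all genes. They were Ccn1 (1.09) and Ccn2 (1.08), matricellular proteins of the vessel wall, Timp1 (1.08), an inhibitor of metalloproteinases, the chemokine Ccl2 (1.02), Ptgs2 (0.91), which makes prostaglandins, and Has1 (0.36), a hyaluronan synthase. These calls were not kept without the 5 arrays high in T and NK cell genes, a fit that left 1 abdominal high-phosphate array. The count was 4 to 12 in the other alternatives. Leaving out 1 array lost the call of Ccl2 for abdominal high-phosphate array 2 or thoracic high-phosphate array 3, of Ccn1 for abdominal high-phosphate array 4 or thoracic high-phosphate array 1 or 2, of Has1 for thoracic high-phosphate array 2 and of Ptgs2 for thoracic high-phosphate array 1 (adjusted p 0.0519 to 0.119).

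On the same diet the other transcription factors had 3 of 25 higher, Id1 (0.68), Id3 (0.55) and Klf6 (0.43), and 1 lower, Sox4 (-0.50). The feedback genes had 2 of 37 higher, Dusp8 (0.48) and Ier3 (0.40), and 1 lower, Dusp2 (-0.55). The upstream genes had 2 of 25 higher, Mef2a (0.24) and Prkaca (0.43), and 2 lower, Camk4 (-1.24) and Mapk9 (-0.28), and the chaperones 1 of 9 higher, Hspb1 (0.68), and 0 lower. Beside 7.57% and 6.25% of all genes, these are counts of 1 to 3, and each of these calls was lost in 1 to 17 of 26 alternatives. On chow, where 1.76% of all genes were called higher and 3.02% lower, the secreted products had 1 higher, Ccn2 (0.86), and 0 lower. The other 4 lists had 0 higher, and the upstream list had 2 lower, Camk4 (-1.002) and Mapk9 (-0.36). The Ccn2, Camk4 and Mapk9 calls on chow were lost in 5, 9 and 3 alternatives, fits without 1 array among them.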

How the data were processed

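Total RNA was isolated with a column kit, amplified and biotin-labelled with the NuGEN Applause system, per the labels' protocols. The authors deposited 1 value for each probe set on each array, read here as a log2 intensity. No source gives the log base, which was taken as 2 because the values run from 1.38 to 13.33. RMA and Partek are named in the submitters' processing notes, without versions or the step each was used for, and the genome build is not given in the sources used here. Of 41345 probe sets, 23521 name exactly 1 gene and 1814 several. For genes with several such probe sets the brightest by mean over 15 arrays was used, which left 22180 genes.

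The 10 genes and the other lists were chosen with earlier results of these data known. In R 4.3.3, limma 3.58.1 (lmFit, contrasts.fit, eBayes with trend) fitted the 4 group means of every gene, leaving 11 residual degrees of freedom. The 6 contrasts were tested two-sided, with Benjamini-Hochberg adjustment across all genes and a threshold of 0.05. The pipeline was tested on simulated data. The number of arrays limits the precision. By rule, the text names all 10 genes, may name any called member of the other lists, and names the 10 other genes most like the mean of the 10 by within-group r. The alternatives were a variance prior without trend, genes below the 30th percentile left out, a fit of only the groups compared, median centring, quantile normalization, a replicate block, array weights, the mean of probe sets, an adjusted p under 0.1, leaving out each array, and leaving out the 5 and the 3 arrays high in T and NK cell or hepatocyte genes.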

Additional observations from a re-analysis of the deposited data

Results flagged for a closer look

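In 3 of the 30 groups of 4 arrays looked at (10 genes in 3 groups; the thoracic high-phosphate group, with 3 arrays, was not tested), the highest array was far from the others relative to the range of its group by Dixon's test. Chance alone flags about 5% of such groups. Abdominal chow array 1 was the highest of its group for Atf3, at 7.57, and for Dusp1, at 8.76. Thoracic chow array 3 was the highest of its group for Junb, at 6.54.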

How the results depend on the processing

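The count of the 10 genes called was 1 in the abdominal, thoracic and average diet change, 0 in the difference of diet changes and on chow, and 1 between segments on the high-phosphate diet. Leaving out 1 array gave 0 to 1 in the abdominal diet change, 0 to 1 in the thoracic one, 1 to 2 in the average, 0 to 1 between segments on chow and 0 to 5 on the high-phosphate diet. The fit without the 5 arrays high in T and NK cell genes left 1 abdominal high-phosphate array and 2 abdominal chow arrays. The calls above were not kept in it. So few abdominal arrays cannot show whether the calls depend on the arrays left out. Without the 3 arrays high in hepatocyte genes the count was 0 in the abdominal and thoracic diet change and 0 between segments on the high-phosphate diet. In a fit of only the groups compared it was 0 in the thoracic diet change. Between segments on the high-phosphate diet it was 2 after median centring (Fosb, 0.30, adjusted p = 0.0481, joined Dusp1), 3 with an adjusted p under 0.1, and 3 with the replicate block, under which Atf3 (0.67, adjusted p = 0.0277) and Nr4a1 (0.66, adjusted p = 0.0488) joined Dusp1. Other alternatives gave the same counts.

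The replicate block took the replicate number as a fixed effect. The numbers were not read as pairs, since the labels do not state whether both segments of 1 mouse were used. Same-numbered arrays of different groups had a correlation of deviations of -0.25 to 0.40 (median 0.05, 21 pairs). Differently numbered arrays had -0.52 to 0.42 (median -0.01, 63 pairs). An array's own number gave its highest correlation with another group in 18 of 42 cases. These values do not settle whether same-numbered arrays share a mouse. The fit of group means took all arrays as independent. Calls over all genes in the 6 contrasts are given in the order abdominal, thoracic, average, difference, chow and high phosphate. The replicate block gave 1692, 646, 2609, 0, 1126 and 2670 calls, against 1554, 548, 2376, 0, 1061 and 3067 without it. Over all alternatives these counts ranged over 137 to 2308, 209 to 992, 1029 to 3287, 0 to 43, 496 to 1795 and 466 to 4469.

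Some changes that passed no test changed sign. Without the 3 arrays high in hepatocyte genes the abdominal change of Nr4a1 was 0.047 and the difference of diet changes of Egr1 was 0.025. Without the 5 arrays high in T and NK cell genes the abdominal change of Egr1 was -0.56. On leaving out 1 array the abdominal change of Egr1 ran from -0.03 to 0.38, the thoracic change of Nr4a1 from -0.08 to 0.80, the difference of diet changes of Zfp36 from -0.42 to 0.023, and the segment difference of Junb on the high-phosphate diet from -0.023 to 0.12. Of the 60 changes of the 10 genes, 34 kept their sign in all alternatives, and 89 of 1540 refits turned a sign. The cause of these shifts was not tested. Groups of 3 or 4 arrays limit what could be detected.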
